A study of Danio rerio with 32 samples.

Results

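How far the response to keap1a/b editing depended on Bach1 was measured for every gene as the log2 change that followed keap1a/b editing in Bach1 DKO larvae minus the log2 change that followed it in WT larvae. It rested on 16 of the 32 libraries of the series, in 4 groups of 4, and no gene was selected: 14108 gene rows passed the filter on low counts, of 16039 with a gene ID. Each library came from 10 pooled zebrafish larvae, taken whole at 7 dpf (days after fertilization), and was read from the 3′ ends of its messenger RNAs, and such counts do not grow with transcript length. WT larvae were labelled wild type. crkeap1a/b larvae had been injected as embryos with CRISPR/Cas9 complexes against both zebrafish Keap1 paralogs, keap1a and keap1b, which gives a mosaic of edited and unedited cells. Bach1 DKO larvae came from a mutant line with stop codons in bach1a and bach1b, made on a background with a gstp1 reporter and a liver reporter transgene. The authors' images show larvae of all 4 groups with the gstp1 reporter. The background of the sequenced WT and crkeap1a/b larvae is not stated in the sources used here. Bach1 DKO crkeap1a/b larvae combined that line with the same injection. The authors state that clutch siblings served as controls, but not which pools shared a clutch. Whether the larvae without keap1a/b editing received a control injection is not stated in the sources used here, and the labels give no clutch, injection session or sequencing batch. Bach1 loss, the line and the efficiency of editing in each line therefore cannot be told apart in any value of this comparison.

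Keap1 is the substrate adaptor that holds the transcription factor Nrf2 at a low level by marking it for degradation, and its loss lets Nrf2 bind antioxidant response elements together with small Maf proteins. Bach1 is a repressor of the same cap'n'collar family that also pairs with small Maf proteins and binds overlapping elements. Heme binds mammalian Bach1 and removes it from DNA, and heme oxygenase and ferritin genes are its best known targets. A positive interaction means that expression rose more, or fell less, after keap1a/b editing where Bach1 was mutated, and a negative interaction the reverse.

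The 16 libraries held 3464165 to 4712448 counts each, of which 36.6% to 44.8% lay in rows with no gene ID that were left out, so that 2009307 to 2773033 counts entered the comparison. A limit of 3 counts corresponded to 0.962 to 1.34 CPM (CPM, counts scaled to a common library size with TMM factors). The TMM factors were between 0.983 and 1.21. A count read at the 3′ end does not check a small edit elsewhere in a gene, so the edited genes are given as levels only. keap1a was at 16.6 ± 2.11 CPM in WT, 43.8 ± 6.44 CPM in crkeap1a/b, 29.3 ± 3.14 CPM in Bach1 DKO and 117 ± 13.1 CPM in Bach1 DKO crkeap1a/b larvae (SD, n = 4). It rose after editing in WT (1.38 ± 0.17 SE, adjusted p 1.21e-07) and in Bach1 DKO larvae (2.00 ± 0.15 SE, adjusted p 1.86e-13), and its interaction was not called, so equal rises are not shown. keap1b had an interaction of 0.57 ± 0.31 SE, adjusted p 0.346. bach1a was lower in Bach1 DKO than in WT larvae (log2 difference -0.81 ± 0.30 SE, adjusted p 0.0456) and bach1b higher (1.07 ± 0.19 SE, adjusted p 7.59e-05), so transcripts of both mutated genes were still detected. Induction of gclc, which encodes the catalytic subunit of the enzyme that limits glutathione synthesis, was seen in both edited groups: gclc was at 64, 88.4, 57.4 and 67.7 CPM in the 4 WT pools and 318, 332, 363 and 331 CPM in the crkeap1a/b pools. With Bach1 mutated, gclc was at 47, 37.7, 48.7 and 48 CPM in the Bach1 DKO and 266, 229, 269 and 274 CPM in the Bach1 DKO crkeap1a/b pools. Every edited pool was above every unedited pool for this Nrf2 target.

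By limma-voom with Benjamini-Hochberg adjustment over all 14108 rows, 208 genes had a higher and 178 a lower editing effect in Bach1 DKO than in WT larvae at an adjusted p under 0.05, which is 1.47% and 1.26% of the rows tested. These shares are the background for each count of list members from this fit given below. A single called member of a list is given as a value of that gene and not as a result about its list. The median interaction over all rows was -0.01, and the median width of a 95% interval to either side of its estimate was 0.70 on the log2 scale. Among called genes with over 3 counts in each of the 4 groups, 206 higher and 175 lower, interactions were between 0.55 and 5.08 in size when higher and between 0.50 and 4.07 when lower. Editing raised 473 genes (3.35%) and lowered 274 (1.94%) in WT larvae, and raised 1938 (13.7%) and lowered 1650 (11.7%) in Bach1 DKO larvae. The counts differed between fits, and a list count from another fit stands against the counts over all rows in that fit. DESeq2 called 291 genes higher and 212 lower of 14108, and edgeR's quasi-likelihood test 196 and 155. Fits without 1 pool called 112 (of 14415 rows) to 261 (of 14424) higher and 88 (of 14427) to 197 (of 14424) lower. With the 4 compared groups fitted alone, in which 13569 rows passed the filter, 506 genes were called higher and 505 lower, among them 208 and 175 of the genes above. The scatter of replicate pools, pooled over genes on the log2 CPM scale, was 0.326 to 0.392 in the 4 compared groups and 0.516 and 0.560 in crkeap1a and crkeap1b larvae, which share the error of the fit to all 32 libraries.

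**Figure D1:**
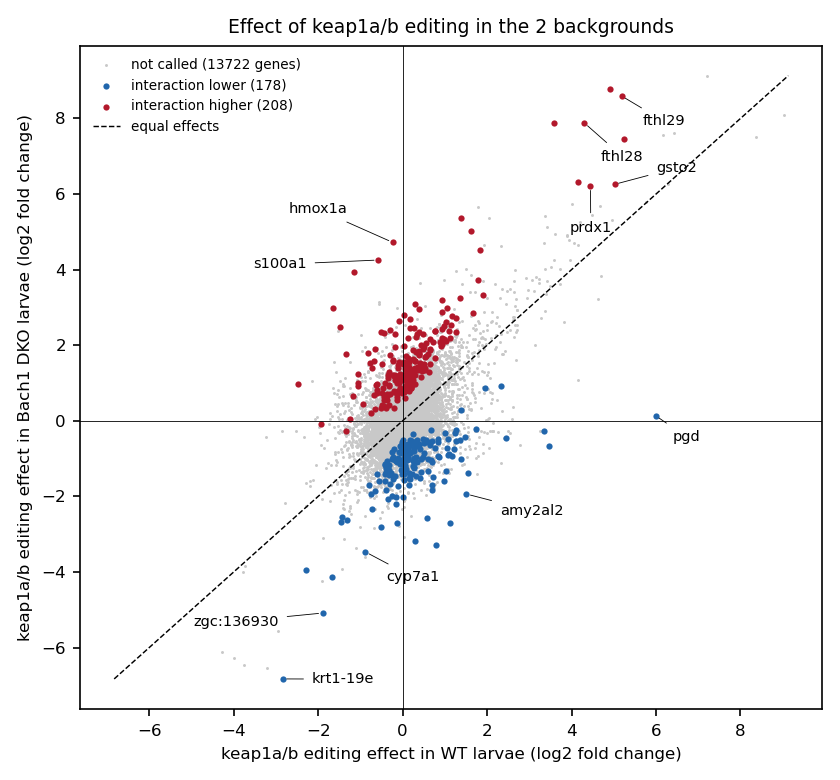
Each point is a gene. The horizontal axis is the log2 fold change after keap1a/b editing in WT larvae and the vertical axis that in Bach1 DKO larvae, from the same fit (4 pools per group). The 208 genes with a higher interaction lie above the dashed line of equal effects and the 178 with a lower interaction below it; hmox1a lies near 0 on the horizontal axis and at 4.72 on the vertical axis. The value of pgd is not a measured fold, since it had 0 or 1 count over the Bach1 DKO pools of each group.

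The 208 higher interactions were mostly rises that appeared where Bach1 was mutated. Of these genes, 197 rose after editing in Bach1 DKO larvae, and 45 rose, 11 fell and 152 passed no test after editing in WT larvae. The median editing effect of the 208 genes was 0.13 in WT and 1.42 in Bach1 DKO larvae on the log2 scale. In 134 of them all 4 Bach1 DKO crkeap1a/b pools lay above the 12 other pools, which held for 1035 (7.34%) of all rows tested. These counts use the libraries that also set the interaction and are given as a description of it.

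A difference of this kind can arise from the edited larvae, from the unedited larvae, or from both. Against WT, 1669 genes (11.8%) were higher and 1635 (11.6%) lower in Bach1 DKO larvae without editing, and against crkeap1a/b 2243 (15.9%) were higher and 1982 (14%) lower in Bach1 DKO crkeap1a/b larvae. Of the 208 genes with a higher interaction, 124 showed no called difference between the unedited groups and were higher with editing. These genes included hmox1a, fthl28, fthl29, fthl31, hmbsb, s100a1 and grna. A further 26 were lower without and higher with editing, and 47 were lower without editing and passed no test with it. In 9 genes, gsto2, blvrb, bach1b and cygb1 among them, expression was higher in the mutant line without and with editing. Among the 178 lower interactions, 72 genes showed no called difference without editing and were lower with it, 17 were higher without and lower with it, and 76 were higher without editing and passed no test with it. Of the 178, 155 fell after editing in Bach1 DKO larvae, while 21 rose and 13 fell after editing in WT larvae. All 4 Bach1 DKO crkeap1a/b pools lay below the 12 others in 62 of the 178 genes, against 817 (5.79%) of all rows tested.

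**Figure D2:**
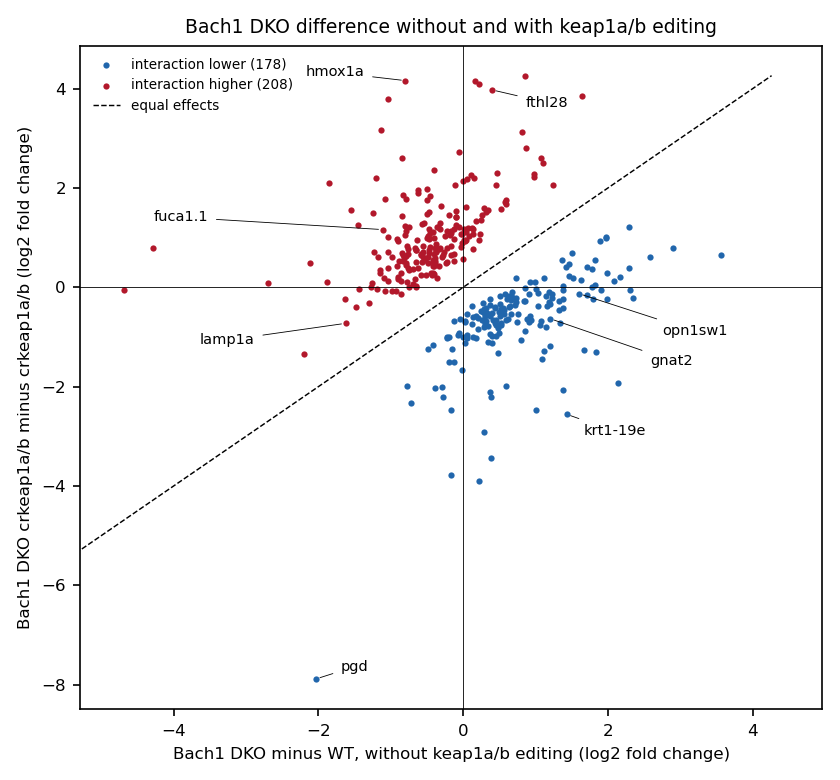
The 208 and 178 genes called for the interaction, placed by the log2 difference between Bach1 DKO and WT larvae without editing (horizontal) and with keap1a/b editing (vertical), from the same fit (4 pools per group). Genes with a higher interaction spread upward from the zero line and to its left, so that some differ with editing and others start lower; genes with a lower interaction spread to the right and downward. pgd, at 0 or 1 count in each group of the mutant line, has no measured fold.

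The pair of interactions with the smallest p-values over all rows tested were those of hmox1a and fthl28, genes of heme breakdown and iron storage. Of the 12 tested members of the list of heme breakdown and ferritin genes, 6 were called higher and 0 lower, with a median interaction of 1.05, and 10 were positive. hmox1a was at 4.78, 9.77, 6.14 and 10.5 CPM in the 4 WT pools and 5.51, 4.48, 9.83 and 6.08 CPM in the crkeap1a/b pools. With Bach1 mutated, hmox1a was at 1.76, 5.62, 4.92 and 5.77 CPM in the Bach1 DKO and 112, 109, 108 and 133 CPM in the Bach1 DKO crkeap1a/b pools. hmox1a encodes heme oxygenase 1, which opens the heme ring and releases iron, carbon monoxide and biliverdin. The pools of the 3 other groups overlapped, and every Bach1 DKO crkeap1a/b pool was above them. The log2 effect of editing on hmox1a was 4.72 ± 0.33 SE, adjusted p 4.46e-14, in Bach1 DKO larvae and -0.24 ± 0.32 SE, adjusted p 0.766, in WT larvae, and the interaction was 4.96 ± 0.46 SE, adjusted p 8.46e-09, with a 95% interval of 4.03 to 5.89. hmox2a and hmox2b, the constitutive heme oxygenases, had interactions of -0.03 ± 0.29 SE and 0.10 ± 0.28 SE, neither past the threshold.

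The ferritin heavy chain genes fthl27, fthl28, fthl29 and fthl31 rose on editing in both backgrounds and more in the mutant line. fthl28 was at 9.56, 15.2, 7.22 and 8.69 CPM in the 4 WT pools and 193, 245, 193 and 160.0 CPM in the crkeap1a/b pools. With Bach1 mutated, fthl28 was at 9.22, 11.6, 16.1 and 16 CPM in the Bach1 DKO and 2751, 3206, 3166 and 3226 CPM in the Bach1 DKO crkeap1a/b pools. The edited WT-background pools were already well above the unedited pools of either line, and the edited Bach1 DKO pools stood clear of them again. The interaction of fthl28 was 3.58 ± 0.34 SE, adjusted p 1.26e-08. fthl29 went from 1.55 ± 1.29 to 51.5 ± 8.23 CPM on editing in the WT background and from 2.58 ± 1.19 to 988 ± 111 CPM in the Bach1 DKO background (mean ± SD, n = 4), an interaction of 3.41 ± 0.64 SE, adjusted p 0.00156. fthl31 went from 21.3 ± 9.32 to 355 ± 41.6 CPM and from 21.2 ± 2.91 to 1696 ± 86.4 CPM (mean ± SD, n = 4), an interaction of 2.15 ± 0.39 SE, adjusted p 0.00105. fthl27, the most abundant of the 4, was at 962 ± 163 CPM in WT, 1993 ± 174 CPM in crkeap1a/b, 554 ± 52.3 CPM in Bach1 DKO and 4351 ± 78.7 CPM in Bach1 DKO crkeap1a/b larvae (SD, n = 4), and its interaction of 1.92 ± 0.23 SE, adjusted p 1.6e-06 included a lower starting level in the mutant line. Not every ferritin gene followed: fth1a rose by 1.52 ± 0.16 SE and 1.71 ± 0.16 SE after editing in the 2 backgrounds, with an interaction of 0.19 ± 0.23 SE, adjusted p 0.711, and fthl30 by 2.61 ± 0.37 SE and 2.74 ± 0.29 SE, with 0.13 ± 0.47 SE, adjusted p 0.921. fth1b was at 21.9 ± 4.44 CPM in WT, 13.9 ± 4.47 CPM in crkeap1a/b, 13.1 ± 1.95 CPM in Bach1 DKO and 9.45 ± 2.14 CPM in Bach1 DKO crkeap1a/b larvae (SD, n = 4); its editing effects were -0.69 ± 0.24 SE, adjusted p 0.0915, in WT and -0.50 ± 0.29 SE, adjusted p 0.207, in Bach1 DKO larvae, and its interaction was 0.19 ± 0.38 SE, adjusted p 0.839. The fthl genes are close copies of each other, and how reads that fit several genes were counted is not given in the sources used here, so the split among them is uncertain.

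A biliverdin reductase gene was called as well. blvrb was at 7.72, 5.47, 6.14 and 11.9 CPM in the 4 WT pools and 14.7, 12.3, 16.1 and 14.7 CPM in the crkeap1a/b pools. With Bach1 mutated, blvrb was at 14.1, 12, 18.8 and 11.5 CPM in the Bach1 DKO and 98.3, 94.6, 111 and 107 CPM in the Bach1 DKO crkeap1a/b pools. blvrb encodes biliverdin reductase B. Its interaction was 1.95 ± 0.32 SE, adjusted p 0.000283, and the edited Bach1 DKO pools were above all others, whereas blvra had an interaction of -0.34 ± 0.41 SE, adjusted p 0.715. Among 18 tested genes of heme synthesis and the globins, 4 were called higher and 0 lower, with a median interaction of 1.13 and 16 positive values. In the fit of the 4 groups alone 8 were called. The count was 1 without crkeap1a/b replicate 4, and 2 without Bach1 DKO replicate 1 or 3 or without Bach1 DKO crkeap1a/b replicate 2. hmbsb, which encodes the third enzyme of heme synthesis, was at 4.71 ± 0.763 CPM in WT, 5.8 ± 1.05 CPM in crkeap1a/b, 4.47 ± 1.39 CPM in Bach1 DKO and 24.6 ± 3.69 CPM in Bach1 DKO crkeap1a/b larvae (SD, n = 4), an interaction of 2.18 ± 0.42 SE, adjusted p 0.00181. alas1, the first and regulated step, rose on editing by 2.71 ± 0.21 SE in WT and 2.94 ± 0.21 SE in Bach1 DKO larvae, with an interaction of 0.23 ± 0.30 SE, adjusted p 0.737. The other 3 called members were the embryonic globins hbae1.1 (1.56 ± 0.38 SE, adjusted p 0.0168), hbbe1.3 (1.43 ± 0.36 SE, adjusted p 0.0231) and hbae3 (1.33 ± 0.38 SE, adjusted p 0.043). These globins differed in which larvae set the call. hbae1.1 passed no test between the unedited groups and was higher in the mutant line with editing. hbbe1.3 and hbae3 were lower in the mutant line without editing and passed no test with it. hbae1.1 was at 189.7, 174, 187 and 258 CPM in the 4 WT pools and 147, 166, 149 and 83.4 CPM in the crkeap1a/b pools. With Bach1 mutated, hbae1.1 was at 114, 175, 130.1 and 171 CPM in the Bach1 DKO and 240.4, 357, 271 and 281 CPM in the Bach1 DKO crkeap1a/b pools. WT and edited Bach1 DKO pools overlapped. Without crkeap1a/b replicate 4 hbae1.1 no longer passed (1.35, adjusted p 0.0547). hbae3 lost its call in 12 of 27 alternatives (adjusted p 0.0539 to 0.101), and hbbe1.3 in 4 of 27 (adjusted p 0.051 to 0.0569): without crkeap1a/b replicate 4, Bach1 DKO replicate 1 or 3, or Bach1 DKO crkeap1a/b replicate 2.

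Iron traffic genes were called in 3 of 15 cases, all higher, with a median interaction of 0.49. Over all rows the share called higher was 1.47%. cyb561a3b, a cytochrome b561 family member, was at 0.547 ± 0.474 CPM in WT, 19.2 ± 8.72 CPM in crkeap1a/b, 0.635 ± 0.525 CPM in Bach1 DKO and 311 ± 21.1 CPM in Bach1 DKO crkeap1a/b larvae (SD, n = 4), an interaction of 3.87 ± 0.94 SE, adjusted p 0.0168 that rested on 6 counts in WT and 6 in Bach1 DKO larvae and did not pass without WT replicate 1 (3.52, adjusted p 0.0659) or by edgeR's quasi-likelihood test (3.81, adjusted p 0.0633). tfr1b, a transferrin receptor, was at 14.9 ± 2.02 CPM in WT, 28.9 ± 8.23 CPM in crkeap1a/b, 21.6 ± 3.95 CPM in Bach1 DKO and 84.4 ± 2.95 CPM in Bach1 DKO crkeap1a/b larvae (SD, n = 4), but its call (1.06 ± 0.29 SE, adjusted p 0.0346) was lost in 13 of 27 alternatives (adjusted p 0.0505 to 0.201). hamp, the gene of the iron-regulating hormone hepcidin, was at 5.15, 12.9, 10.1 and 3.98 CPM in WT, 1.1, 2.24, 1.76 and 4.65 CPM in crkeap1a/b, 0, 0, 0 and 0.444 CPM in Bach1 DKO and 1.41, 0.962, 3.64 and 4.13 CPM in Bach1 DKO crkeap1a/b pools. The Bach1 DKO pools held 1 hamp count in all, so no fold is given; editing lowered it in WT larvae (adjusted p 0.0333) and raised it in Bach1 DKO larvae (adjusted p 0.0171). slc40a1, the iron exporter ferroportin, rose on editing by 1.00 ± 0.14 SE in WT and 1.26 ± 0.14 SE in Bach1 DKO larvae, and its interaction of 0.27 ± 0.19 SE, adjusted p 0.509 was not called.

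**Figure D3:**
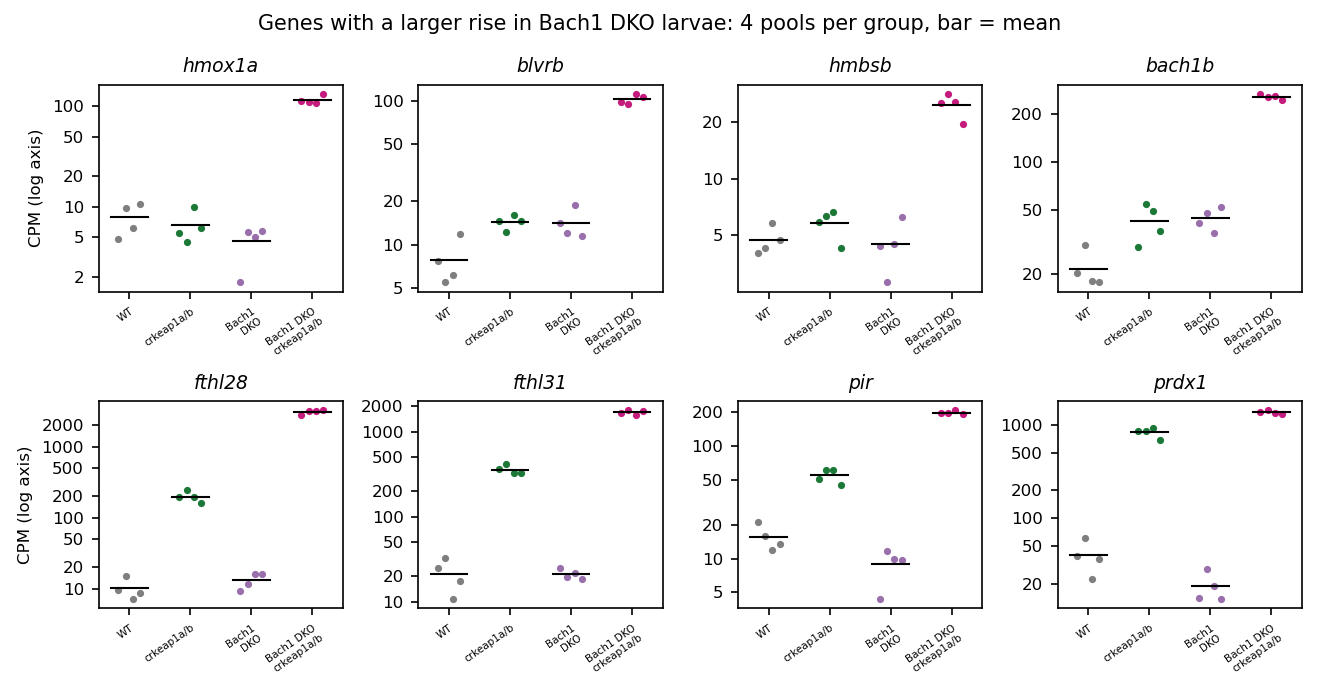
CPM on a log axis in each of the 4 pools of each group (points) with the group mean (bar), for hmox1a, blvrb, hmbsb, bach1b, fthl28, fthl31, pir and prdx1. In all 8 genes the Bach1 DKO crkeap1a/b pools are the highest; for hmox1a they sit at 108 to 133 CPM and the pools of the other groups at 1.76 to 10.5 CPM.

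In the fit to all 32 libraries, no difference in editing effect was called for gclc, gclm, gsr, nqo1, gstp1.2 and srxn1. These are classical Nrf2 targets. Other classical targets were called for the interaction, hmox1a, prdx1 and sqstm1 higher and pgd lower, and are described with their own gene groups. For gclc the interaction was 0.23 ± 0.19 SE, adjusted p 0.579, with a 95% interval of -0.16 to 0.61. gclm, which encodes the modifier subunit of the same enzyme, had 0.37 ± 0.36 SE, adjusted p 0.637 (-0.36 to 1.11). gsr, glutathione reductase, had 0.63 ± 0.52 SE, adjusted p 0.569 (-0.42 to 1.69). nqo1, a quinone reductase, had 0.60 ± 0.21 SE, adjusted p 0.109 (0.18 to 1.02). These intervals reach beyond a difference of 0.5 on the log2 scale, so equal induction is not shown. That of nqo1, which is not adjusted for the number of rows tested, lay above 0. Of 21 tested genes of glutathione synthesis and recycling 0 were called for the interaction, with 17 positive and a median of 0.30, and of 19 quinone and carbonyl reductases 0 were called, with a median of 0.08. At an unadjusted p under 0.05, 5 higher and 0 lower members of the glutathione list and 3 higher and 3 lower of the reductase list passed. Over all rows 2412 (17.1%) did. Among the alternatives with all pools, edgeR's quasi-likelihood test and DESeq2 included, at most 3 higher and 0 lower of the glutathione list and 1 higher and 1 lower of the reductase list were called. gstp1.2, a glutathione S-transferase of the pi class, went from 95.1 ± 11.9 to 1491 ± 505 CPM in the WT background and from 130.0 ± 15.1 to 3926 ± 214 CPM in the Bach1 DKO background (SD, n = 4), an interaction of 1.02 ± 0.34 SE, adjusted p 0.1. Its 4 crkeap1a/b pools were at 1431, 1918, 1813 and 802 CPM, the lowest in replicate 4. srxn1, sulfiredoxin, rose in neither background by this test (interaction 0.88 ± 0.50 SE, adjusted p 0.376).

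Among the antioxidant enzymes, prdx1 and gsto2 stood out. prdx1 was at 39.7, 61.4, 22.4 and 36.9 CPM in the 4 WT pools and 859, 848, 915 and 688 CPM in the crkeap1a/b pools. With Bach1 mutated, prdx1 was at 14.1, 28.5, 18.8 and 13.8 CPM in the Bach1 DKO and 1349.8, 1416, 1336 and 1307 CPM in the Bach1 DKO crkeap1a/b pools. prdx1 encodes peroxiredoxin 1, which reduces hydrogen peroxide. Its unedited level was lower in the mutant line (-1.04 ± 0.29 SE, adjusted p 0.00888) and its edited level higher (0.72 ± 0.22 SE, adjusted p 0.0129), giving an interaction of 1.76 ± 0.37 SE, adjusted p 0.00507. gsto2, an omega-class glutathione transferase, went from 10.5 ± 1.29 to 348 ± 44.3 CPM in the WT and from 21 ± 2.52 to 1617 ± 149 CPM in the Bach1 DKO background (mean ± SD, n = 4), an interaction of 1.24 ± 0.29 SE, adjusted p 0.0146. They were the only called members among 15 peroxiredoxin and thioredoxin genes and 16 glutathione S-transferases, whose median interactions were 0.26 and -0.00. The latter median took either sign among the alternatives. pir, which encodes pirin, an iron-containing nuclear protein, was not on any list and had one of the 10 smallest p-values: pir was at 21, 16, 11.9 and 13.4 CPM in the 4 WT pools and 51.1, 61.3, 61.8 and 45.1 CPM in the crkeap1a/b pools. With Bach1 mutated, pir was at 4.39, 11.6, 9.83 and 9.77 CPM in the Bach1 DKO and 197, 196, 207 and 193 CPM in the Bach1 DKO crkeap1a/b pools. The 4 groups did not overlap, and the interaction was 2.69 ± 0.32 SE, adjusted p 1.6e-06.

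In the fit to all 32 libraries, several genes with very large editing effects were not called for a difference between backgrounds. ptgr1.2, a prostaglandin reductase, went from 0.379 ± 0.438 to 218 ± 53.1 CPM in the WT and from 0.956 ± 0.603 to 290.4 ± 36 CPM in the Bach1 DKO background (mean ± SD, n = 4), an interaction of -0.94 ± 0.94 SE, adjusted p 0.649. zgc:153317 reached 150.5 ± 25.8 and 164 ± 4.9 CPM (mean ± SD, n = 4), an interaction of -0.85 ± 0.91 SE, adjusted p 0.678. gstp1.1 reached 274 ± 112 and 379.7 ± 58.4 CPM (-0.03 ± 0.67 SE, adjusted p 0.987). zgc:123284 reached 61.9 ± 7.11 and 96.5 ± 8.94 CPM, and gja11, a connexin gene, 9.86 ± 1.36 and 12.2 ± 3.89 CPM (SD, n = 4), with 3 or fewer counts over an unedited group, so that their interactions are not given. All 5 were at under 10 CPM in the unedited groups of both lines. Of the 473 genes raised by editing in WT larvae, 45 had a higher and 21 a lower interaction and 407 passed no test; of the 1938 raised in Bach1 DKO larvae the counts were 197, 2 and 1739.

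pgd was nearly absent from the mutant line. The gene, which encodes the NADPH-producing enzyme 6-phosphogluconate dehydrogenase, was at 0.368, 3.13, 0 and 1.81 CPM in WT and 70.6, 45.6, 43.5 and 70.5 CPM in crkeap1a/b pools. It had 0 counts in the 4 Bach1 DKO pools and 1 count in the 4 Bach1 DKO crkeap1a/b pools, so no fold is given for that line. Its call for a lower interaction was lost in 12 of 27 alternatives (adjusted p 0.0504 to 0.971), edgeR's quasi-likelihood test and DESeq2 among them. It was the only member called among 11 tested genes of NADPH supply, whose median interaction was -0.11. tktb, a transketolase of the same pathway, rose on editing by 2.44 ± 0.17 SE in WT and 3.08 ± 0.17 SE in Bach1 DKO larvae (interaction 0.64 ± 0.24 SE, adjusted p 0.145).

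Genes of the Bach1 and Maf families were called as well. bach1b was at 20.2, 30.1, 18 and 17.7 CPM in the 4 WT pools and 29.4, 54.6, 49.5 and 36.9 CPM in the crkeap1a/b pools. With Bach1 mutated, bach1b was at 41.7, 47.8, 36.2 and 52.4 CPM in the Bach1 DKO and 265, 253, 256 and 241 CPM in the Bach1 DKO crkeap1a/b pools. bach1b was higher than in WT in the mutant line and in crkeap1a/b larvae, and its rise on editing was larger in the mutant line (interaction 1.54 ± 0.24 SE, adjusted p 0.00018). bach1a had an interaction of 1.41 ± 0.36 SE, adjusted p 0.0265, and it no longer passed in 7 leave-one-out fits: without WT replicate 1 or 2, Bach1 DKO replicate 1, 3 or 4, or Bach1 DKO crkeap1a/b replicate 1 or 2, with adjusted p 0.0535 to 0.0668. mafba, a large Maf factor, was called at 0.74 ± 0.18 SE, adjusted p 0.0187 but not without crkeap1a/b replicate 4 (0.67, adjusted p 0.0568). nfe2l2a, the Nrf2 gene, fell on editing in WT (-0.72 ± 0.12 SE, adjusted p 5.44e-05) and in Bach1 DKO larvae (-0.52 ± 0.12 SE, adjusted p 0.00111), with an interaction of 0.21 ± 0.17 SE, adjusted p 0.566. Of the 12 tested CNC, Maf and Keap1 factors 3 were called higher and 0 lower, 7 were positive and the median interaction was 0.38. The calls include bach1a and bach1b, the genes mutated in the compared line.

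Lysosomal genes had mostly positive interactions, with few calls. Of 59 tested lysosomal hydrolases and membrane proteins 5 were called higher and 0 lower, 49 were positive and the median was 0.55; of 14 cathepsins 3 were called higher and 0 lower, 13 were positive and the median was 0.65. Over all rows 1.47% were called higher and the median was -0.01. fuca1.1 was at 86.4, 86, 50.2 and 47.4 CPM in the 4 WT pools and 72.4, 71.4, 77.6 and 70.5 CPM in the crkeap1a/b pools. With Bach1 mutated, fuca1.1 was at 27.7, 34.5, 26.4 and 31.1 CPM in the Bach1 DKO and 166, 158, 163 and 167 CPM in the Bach1 DKO crkeap1a/b pools. fuca1.1 encodes a lysosomal alpha-L-fucosidase. Its Bach1 DKO pools were the lowest and its Bach1 DKO crkeap1a/b pools the highest of the 4 groups, and the interaction of 2.28 ± 0.26 SE, adjusted p 5.11e-07 thus had a part from the unedited (-1.11 ± 0.20 SE, adjusted p 8.04e-05) and a part from the edited larvae (1.16 ± 0.17 SE, adjusted p 2.01e-06). ctsla, a cathepsin L gene, was at 466 ± 125 CPM in WT, 559.9 ± 77.5 CPM in crkeap1a/b, 264 ± 36 CPM in Bach1 DKO and 786 ± 93.1 CPM in Bach1 DKO crkeap1a/b larvae (SD, n = 4) (interaction 1.28 ± 0.24 SE, adjusted p 0.00156). ctsba, a cathepsin B gene, was at 242 ± 75.5 CPM in WT, 295 ± 48.4 CPM in crkeap1a/b, 189 ± 22.8 CPM in Bach1 DKO and 664 ± 42.8 CPM in Bach1 DKO crkeap1a/b larvae (SD, n = 4) (interaction 1.5 ± 0.35 SE, adjusted p 0.0136). ctsc, a cathepsin C gene, had 1.12 ± 0.28 SE, adjusted p 0.0217. Of the cathepsins not called, ctss2.1 was at 2.01 ± 2.62 CPM in WT and 4.18 ± 1.92 CPM in crkeap1a/b larvae. It was at 2.67 ± 1.83 CPM in Bach1 DKO and 123 ± 10 CPM in Bach1 DKO crkeap1a/b larvae (SD, n = 4). ctsk, also not called, was at 3.78 ± 2.80, 6.13 ± 1.51, 3.08 ± 1.84 and 20.6 ± 4.23 CPM in the same order. For neither gene does the missing call show equal editing effects in the WT and Bach1 DKO backgrounds. tpp1, tripeptidyl peptidase, had 1.46 ± 0.32 SE, adjusted p 0.00726. galca, a galactosylceramidase, had 1.63 ± 0.44 SE, adjusted p 0.0345. The call of ctsc was lost without WT replicate 1 or 2, crkeap1a/b replicate 4, or Bach1 DKO replicate 3 or 4 (adjusted p 0.0504 to 0.0764), and that of galca in 10 of 27 alternatives (adjusted p 0.0537 to 0.107). galns, a sulfatase, had 2.73 ± 0.67 SE, adjusted p 0.018 and did not pass without WT replicate 2 (2.49, adjusted p 0.0543). lamp1a, a main protein of the lysosomal membrane, was called at 0.90 ± 0.24 SE, adjusted p 0.0303 while its edited level remained lower in the mutant line: it was at 698 ± 208 CPM in WT, 629 ± 69 CPM in crkeap1a/b, 219.7 ± 21.4 CPM in Bach1 DKO and 379.8 ± 32 CPM in Bach1 DKO crkeap1a/b larvae (SD, n = 4). It lost its call in 7 leave-one-out fits, without WT replicate 1 or 2, crkeap1a/b replicate 4, Bach1 DKO replicate 3 or 4, or Bach1 DKO crkeap1a/b replicate 3 or 4, with adjusted p 0.0526 to 0.0939. In the fit of the 4 groups alone 13 of the lysosomal genes and 4 cathepsins were called higher. The count of lysosomal genes was 3 without WT replicate 1 or 2, crkeap1a/b replicate 4, or Bach1 DKO crkeap1a/b replicate 3 or 4, and 8 without WT replicate 3 or by DESeq2. DESeq2 called 5 cathepsins.

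The regulators of lysosomal genes and the acid pump were not called. Of 17 tested genes of the MiT/TFE factors and mTORC1 at the lysosome 0 were called (median 0.30), and of 18 vacuolar ATPase subunits 0 (median 0.23). At an unadjusted p under 0.05 each of these lists had 3 higher and 1 lower. In the alternatives with all pools, by limma, edgeR or DESeq2, at most 0 higher and 1 lower were called in the first list, and at most 1 higher and 1 lower among the subunits. In autophagy 1 of 33 genes was called, sqstm1, which encodes the autophagy receptor p62: sqstm1 was at 190.5, 327, 171 and 182 CPM in the 4 WT pools and 422, 377, 409.7 and 388 CPM in the crkeap1a/b pools. With Bach1 mutated, sqstm1 was at 139, 132, 138 and 151 CPM in the Bach1 DKO and 599.8, 598, 658 and 691 CPM in the Bach1 DKO crkeap1a/b pools. sqstm1 was lower in Bach1 DKO than in WT larvae without editing and higher with it, and the interaction was 1.26 ± 0.23 SE, adjusted p 0.00105; WT replicate 2 was the highest WT pool. The median over the autophagy genes was 0.09. Of 41 proteasome subunits 39 were positive with a median of 0.47. The called members were 3, psma3 (0.86 ± 0.19 SE, adjusted p 0.00949), psmd11b (0.77 ± 0.20 SE, adjusted p 0.0265) and psma6b (0.89 ± 0.24 SE, adjusted p 0.0385). psma6b lost its call in 9 of 27 alternatives (adjusted p 0.0526 to 0.0893) and psmd11b without WT replicate 2, crkeap1a/b replicate 4, or Bach1 DKO replicate 2 or 3 (adjusted p 0.0556 to 0.0679); in the fit of the 4 groups alone 13 subunits were called. It was 1 subunit without WT replicate 2 or crkeap1a/b replicate 4, and 5 without WT replicate 4 or by DESeq2. Proteasome subunits rose after editing in 36 of 41 cases in Bach1 DKO and in 8 of 41 in WT larvae.

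Chaperones of the endoplasmic reticulum were also mostly positive: 4 of 23 were called higher, 21 were positive and the median was 0.68. In the fit of the 4 groups alone 9 were called, and 2 without WT replicate 2 or crkeap1a/b replicate 4. The calcium-binding chaperone calr3b was at 89.6 ± 32.8 CPM in WT, 193 ± 30.8 CPM in crkeap1a/b, 43.1 ± 6.19 CPM in Bach1 DKO and 295 ± 26.6 CPM in Bach1 DKO crkeap1a/b larvae (SD, n = 4) (interaction 1.6 ± 0.32 SE, adjusted p 0.00359), and calr3a had 1.36 ± 0.26 SE, adjusted p 0.00207. hspa5, the main endoplasmic reticulum HSP70, was called at 1.16 ± 0.29 SE, adjusted p 0.0187 but not without WT replicate 2 (1.01, adjusted p 0.0615) or crkeap1a/b replicate 4 (0.99, adjusted p 0.0591). canx, calnexin, lost its call in 12 of 27 alternatives (adjusted p 0.0501 to 0.114). Of 22 heat shock genes 2 were called higher, hspa4a and hsp90aa1.2, with a median of 0.54, and the calls were lost in 15 of 27 and 9 of 27 alternatives. hsp90aa1.2, an HSP90 gene, was at 216 ± 27.9 CPM in WT, 223 ± 16.9 CPM in crkeap1a/b, 46.5 ± 4.45 CPM in Bach1 DKO and 93.5 ± 39 CPM in Bach1 DKO crkeap1a/b larvae (SD, n = 4), so it was far lower in both groups of the mutant line. In the fit of the 4 groups alone 5 heat shock genes were called, and 0 without WT replicate 1 or 2, crkeap1a/b replicate 1 or 4, Bach1 DKO replicate 1, 3 or 4, or Bach1 DKO crkeap1a/b replicate 3 or 4. Of 16 genes of the p53 response 3 were called higher, the growth arrest genes gadd45ba (1.1 ± 0.25 SE, adjusted p 0.00955) and gadd45bb (2.05 ± 0.53 SE, adjusted p 0.0249) and the ribosomal protein gene rps27l (1.1 ± 0.24 SE, adjusted p 0.00884). gadd45ba and rps27l were lower in Bach1 DKO than in WT larvae without editing and passed no test between the edited groups. gadd45bb passed no test between the unedited groups and was higher in the mutant line with editing. The call of gadd45bb did not pass without WT replicate 4, crkeap1a/b replicate 4, or Bach1 DKO replicate 1, 2 or 3 (adjusted p 0.0504 to 0.0616). Of 31 genes of ATF4 and amino acid stress 1 was called, the amino acid transporter slc38a2 (0.93 ± 0.25 SE, adjusted p 0.0356, lost in 11 of 27 alternatives, adjusted p 0.0526 to 0.0968), and of 22 genes of cholesterol and fatty acid synthesis 1, hmgcs1 (1.29 ± 0.32 SE, adjusted p 0.0187), which did not pass without crkeap1a/b replicate 4 (1.17, adjusted p 0.0572).

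**Figure D4:**
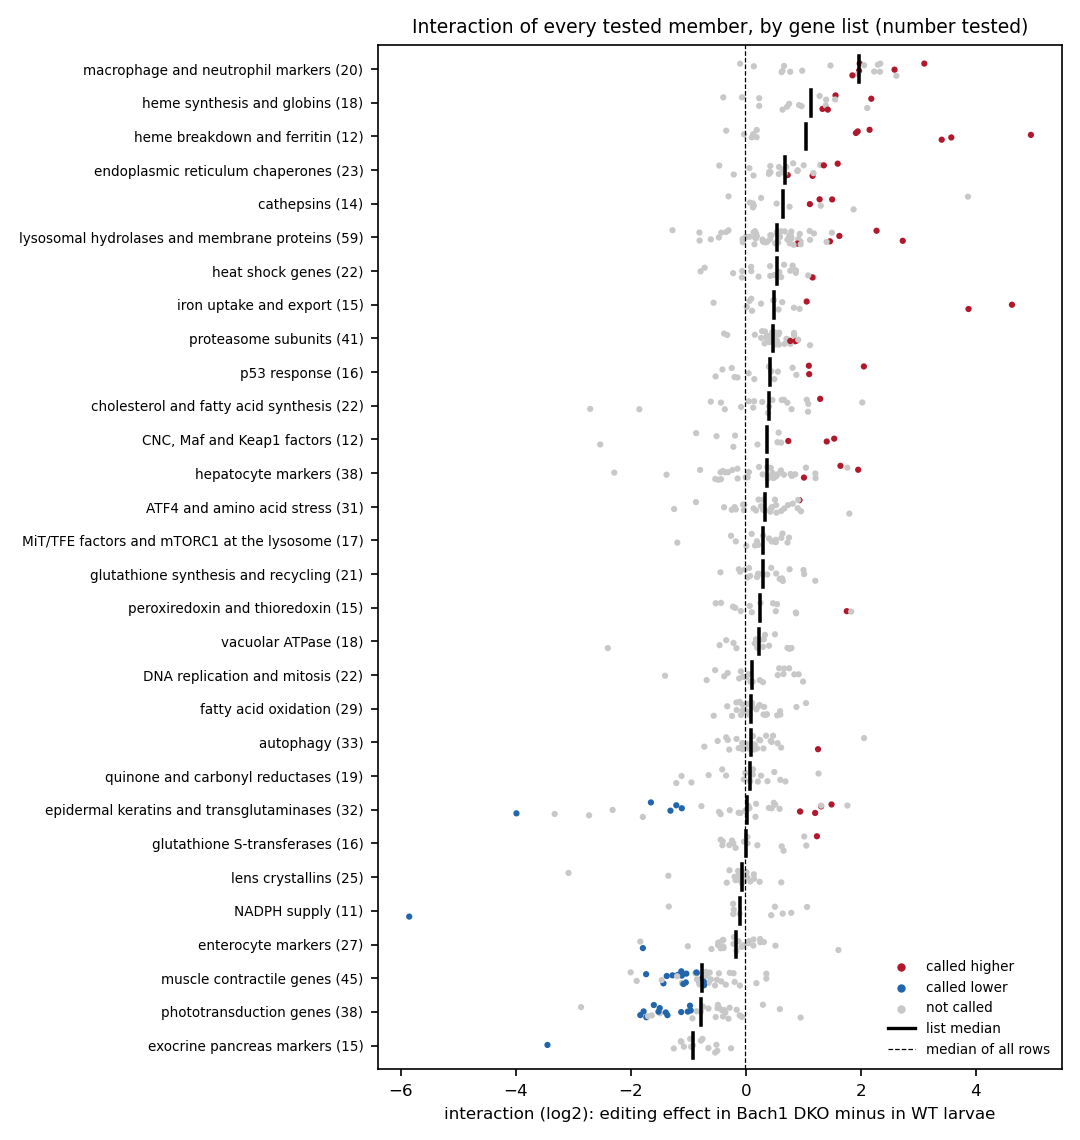
Interaction on the log2 scale (horizontal) of every tested member of 30 gene lists (rows, with the number tested), with the list median as a bar and the median of all rows as a dashed line. The highest medians are those of the macrophage and neutrophil markers (1.96), the heme synthesis and globin genes (1.13) and the heme breakdown and ferritin genes (1.05), and the lowest those of the exocrine pancreas markers (-0.92), phototransduction genes (-0.77) and muscle contractile genes (-0.76). Fitted values of genes with almost no counts in a group, such as pgd, are drawn as fitted.

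Markers of single cell types moved as well, and in whole larvae fewer cells of a type and less RNA per cell cannot be told apart. The highest median of any list, 1.96, was that of the macrophage and neutrophil markers, where 5 of 20 genes were called higher, 0 lower, and 19 were positive. The fit of the 4 groups alone called 8, and 3 were called without WT replicate 2, crkeap1a/b replicate 2 or 4, or Bach1 DKO replicate 3. Their summed level was 159 to 356 CPM in WT, 149.9 to 222 CPM in crkeap1a/b, 112 to 159.8 CPM in Bach1 DKO and 257 to 314 CPM in Bach1 DKO crkeap1a/b pools, with none of the 22 matched markers at 0 in all pools of a group but cxcr1 in Bach1 DKO. Edited Bach1 DKO pools were above unedited Bach1 DKO pools without overlap, and overlapped WT pools. grna, a granulin, was at 5.89 ± 2.49 CPM in WT, 7.73 ± 3.44 CPM in crkeap1a/b, 3.86 ± 1.88 CPM in Bach1 DKO and 28.6 ± 1.07 CPM in Bach1 DKO crkeap1a/b larvae (SD, n = 4) (interaction 2.59 ± 0.51 SE, adjusted p 0.00289). cyba and ncf1, subunits of the phagocyte NADPH oxidase, had 1.97 ± 0.51 SE, adjusted p 0.0254 and 1.86 ± 0.45 SE, adjusted p 0.0176. mfap4.1, a macrophage marker, had 3.11 ± 0.67 SE, adjusted p 0.00718. Its edited Bach1 DKO pools did not all lie above the 12 other pools. The mfap4.1 level in crkeap1a/b replicate 1 was 2.94 CPM, and 25 of 27 alternatives tested the gene. npsn, a neutrophil protease, had 1.98 ± 0.53 SE, adjusted p 0.0315. For ncf1 and npsn the edited Bach1 DKO level (5.56 ± 0.808 and 9.59 ± 3 CPM, SD, n = 4) was not above WT (9.14 ± 2.88 and 19.9 ± 7.9 CPM). npsn lost its call in 10 of 27 alternatives (adjusted p 0.0513 to 0.0809), ncf1 without crkeap1a/b replicate 2 (1.59, adjusted p 0.0536), and cyba without WT replicate 2, crkeap1a/b replicate 4 or Bach1 DKO replicate 3 (adjusted p 0.0567 to 0.0942). Macrophages are rich in lysosomes and recycle heme iron, and the part of macrophages and neutrophils in the interactions of lysosomal, heme and ferritin genes was not tested.

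Of 38 tested hepatocyte markers 3 were called higher and 0 lower, 24 were positive and the median was 0.38, with a summed level of 8769 to 10868 CPM in WT, 8499 to 10902 CPM in crkeap1a/b, 9577 to 10723 CPM in Bach1 DKO and 9730.3 to 13309 CPM in Bach1 DKO crkeap1a/b pools; hp was at 0 in both groups of the mutant line. In the fit of the 4 groups alone 8 were called higher and 1 lower, and 5 were called higher without WT replicate 3 or by DESeq2. The called members were the fibrinogen chains fgb and fga and plasminogen. fgb was at 116 ± 31.1 CPM in WT, 142 ± 8.15 CPM in crkeap1a/b, 48 ± 3.76 CPM in Bach1 DKO and 238 ± 49.2 CPM in Bach1 DKO crkeap1a/b larvae (SD, n = 4) (interaction 1.96 ± 0.35 SE, adjusted p 0.00105) and fga had 1.65 ± 0.34 SE, adjusted p 0.00507, while plg (1.01 ± 0.29 SE, adjusted p 0.0471) lost its call in 17 of 27 alternatives (adjusted p 0.0508 to 0.105). cyp7a1, the rate-limiting enzyme of bile acid synthesis, is not on the marker list and had a negative interaction: cyp7a1 was at 34.9, 32.5, 89.5 and 65.9 CPM in the 4 WT pools and 52.2, 19.8, 20.4 and 27.9 CPM in the crkeap1a/b pools. With Bach1 mutated, cyp7a1 was at 63.7, 34.1, 93.4 and 101 CPM in the Bach1 DKO and 13.1, 3.21, 5.1 and 5.79 CPM in the Bach1 DKO crkeap1a/b pools. All edited Bach1 DKO pools were below all others, and the interaction was -2.59 ± 0.59 SE, adjusted p 0.0108. The change on editing passed the test in Bach1 DKO (-3.47 ± 0.49 SE, adjusted p 9.72e-07) and not in WT larvae (-0.88 ± 0.33 SE, adjusted p 0.12).

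Of the lists, muscle and phototransduction genes held the most lower calls. Of 45 tested muscle contractile genes 16 were called lower and 0 higher, 42 were negative and the median was -0.76. The fit of the 4 groups alone called 30 lower, and 10 were called lower without WT replicate 2. Of the 45, 35 fell on editing in Bach1 DKO and 7 in WT larvae, and 19 were higher in Bach1 DKO than in WT larvae without editing. tnnt3a was at 71.3, 72.3, 94.9 and 91.2 CPM in the 4 WT pools and 80.5, 71.4, 63.2 and 62.3 CPM in the crkeap1a/b pools. With Bach1 mutated, tnnt3a was at 133, 184, 136 and 143 CPM in the Bach1 DKO and 33.9, 42.6, 30.2 and 44.6 CPM in the Bach1 DKO crkeap1a/b pools. tnnt3a encodes a fast skeletal troponin T. The unedited Bach1 DKO pools were the highest and the edited Bach1 DKO pools the lowest, without overlap with the rest, and the interaction was -1.73 ± 0.23 SE, adjusted p 1.71e-05. myl1, a fast myosin light chain, fell on editing in WT (-0.76 ± 0.18 SE, adjusted p 0.00629) and more so in Bach1 DKO larvae (-1.94 ± 0.18 SE, adjusted p 8.07e-11; interaction -1.18 ± 0.25 SE, adjusted p 0.00671). myhz1.3, a fast myosin heavy chain and one of several close copies, was at 815 ± 108 CPM in WT, 835 ± 115 CPM in crkeap1a/b, 1107 ± 84 CPM in Bach1 DKO and 421 ± 46.2 CPM in Bach1 DKO crkeap1a/b larvae (SD, n = 4) (interaction -1.43 ± 0.21 SE, adjusted p 4.43e-05). mybpc2b, a fast myosin binding protein, had -1.37 ± 0.32 SE, adjusted p 0.0129. neb, nebulin, lost its call in 18 of 27 alternatives (adjusted p 0.0504 to 0.128). The summed level of the 47 matched muscle genes was 58256 to 68724 CPM in WT, 39648 to 50653 CPM in crkeap1a/b, 73284 to 89349 CPM in Bach1 DKO and 28076 to 36103 CPM in Bach1 DKO crkeap1a/b pools. Since CPM values share a fixed total within a library, the part of this change in the values of other genes was not tested; the TMM factors, which allow for it, were used throughout.

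Among phototransduction genes the unedited Bach1 DKO larvae often had the highest level. Of 38 tested, 12 were called lower and 0 higher, 35 were negative and the median was -0.77; 19 were higher in Bach1 DKO than in WT larvae without editing and 23 fell on editing in Bach1 DKO larvae. gnat2 was at 88.6, 50.05, 108 and 117 CPM in the 4 WT pools and 104, 100.2, 82.8 and 97.7 CPM in the crkeap1a/b pools. With Bach1 mutated, gnat2 was at 168, 189.9, 221 and 227 CPM in the Bach1 DKO and 61.9, 84.3, 51.3 and 53.3 CPM in the Bach1 DKO crkeap1a/b pools. gnat2 encodes the cone transducin alpha subunit. Its Bach1 DKO pools were above all others, while the 3 other groups overlapped in part, and WT replicate 2 was the lowest WT pool (interaction -1.83 ± 0.25 SE, adjusted p 2.85e-05). The same held for opn1sw1, the ultraviolet cone opsin: opn1sw1 was at 730.3, 369, 1075 and 1106 CPM in the 4 WT pools and 974, 946, 814 and 705 CPM in the crkeap1a/b pools. With Bach1 mutated, opn1sw1 was at 2051, 2423, 2214 and 2468 CPM in the Bach1 DKO and 1035, 1139.6, 441 and 719 CPM in the Bach1 DKO crkeap1a/b pools. Here the edited Bach1 DKO pools overlapped the WT pools (interaction -1.73 ± 0.34 SE, adjusted p 0.00266), and the difference between the lines passed the test without editing (1.6 ± 0.24 SE, adjusted p 8.82e-06) and not with it (-0.13 ± 0.24 SE, adjusted p 0.725). gnb3b, a cone G protein subunit, pde6c, the cone phosphodiesterase, and grk1b, an opsin kinase, had interactions of -1.6 ± 0.22 SE, adjusted p 3.44e-05, -1.36 ± 0.23 SE, adjusted p 0.000334 and -1.78 ± 0.41 SE, adjusted p 0.012. Of the rod genes, gnat1, transducin, had -0.49 ± 0.28 SE, adjusted p 0.366 and rho, rhodopsin, -0.35 ± 0.30 SE, adjusted p 0.582. Over the 40 matched genes the summed level was 2612 to 4532 CPM in WT, 3440.0 to 4013 CPM in crkeap1a/b, 6383 to 7121 CPM in Bach1 DKO and 2649 to 3953 CPM in Bach1 DKO crkeap1a/b pools, and gngt2a was at 0 in the first 3 groups. Lens crystallins, the other eye list, had 0 of 25 called by limma-voom or in any alternative with all pools, edgeR and DESeq2 included, 0 higher and 1 lower at an unadjusted p under 0.05, and a median of -0.06.

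**Figure D5:**
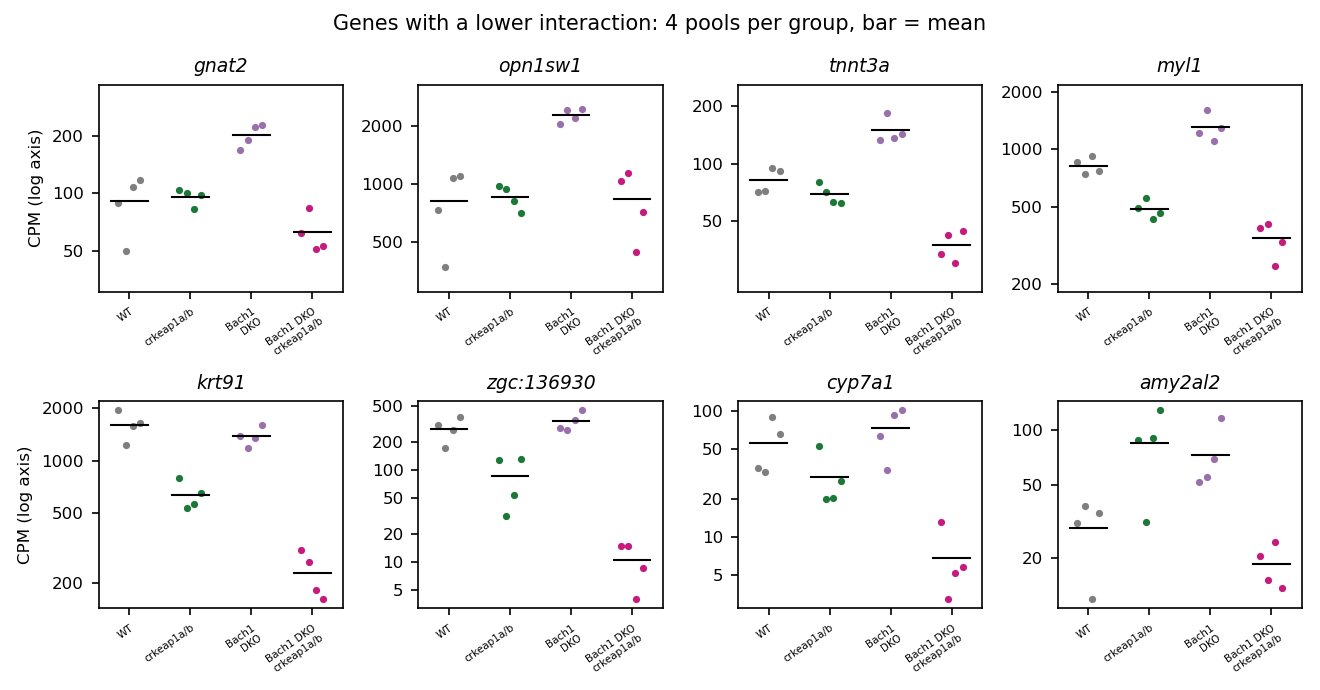
CPM on a log axis in each of the 4 pools of each group (points) with the group mean (bar), for gnat2, opn1sw1, tnnt3a, myl1, krt91, zgc:136930, cyp7a1 and amy2al2. For gnat2, opn1sw1, tnnt3a and myl1 the Bach1 DKO pools are the highest of the 4 groups; for krt91, zgc:136930 and cyp7a1 the Bach1 DKO crkeap1a/b pools are the lowest.

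In the skin the calls went in both directions. Of 32 tested keratins and other epidermal genes 5 were called lower and 4 higher, 16 were positive and the median was 0.02, and 16 fell on editing in WT and 13 in Bach1 DKO larvae. Leaving out 1 pool gave 0 to 4 higher and 2 to 5 lower calls, moving a count by over 1.5 times for each pool but WT replicate 3 or 4 and crkeap1a/b replicate 3. The fit of the 4 groups alone gave 5 and 8. krt91 was at 1933, 1235, 1571 and 1632 CPM in the 4 WT pools and 791, 536, 563 and 654 CPM in the crkeap1a/b pools. With Bach1 mutated, krt91 was at 1386, 1183, 1353 and 1604 CPM in the Bach1 DKO and 307, 264, 183 and 163 CPM in the Bach1 DKO crkeap1a/b pools. Each edited group was below its unedited control for this type I keratin gene, and the edited Bach1 DKO pools were below those of crkeap1a/b (interaction -1.31 ± 0.31 SE, adjusted p 0.0147). krt1-19d had -1.65 ± 0.44 SE, adjusted p 0.0329 and lost its call in 7 of 27 alternatives, those without WT replicate 2, crkeap1a/b replicate 1 or 4, Bach1 DKO replicate 3, or Bach1 DKO crkeap1a/b replicate 2, 3 or 4 (adjusted p 0.0545 to 0.0796). krt1-19e was at 125 ± 44.5 CPM in WT, 18.4 ± 9.43 CPM in crkeap1a/b, 331 ± 98.8 CPM in Bach1 DKO and 2.74 ± 1.12 CPM in Bach1 DKO crkeap1a/b larvae (SD, n = 4) (interaction -3.99 ± 0.76 SE, adjusted p 0.00179). zgc:136930, on no list, was at 282 ± 82.9 CPM in WT, 86.2 ± 51.4 CPM in crkeap1a/b, 338 ± 78.3 CPM in Bach1 DKO and 10.6 ± 5.33 CPM in Bach1 DKO crkeap1a/b larvae (SD, n = 4) (interaction -3.19 ± 0.56 SE, adjusted p 0.00093). The 4 members called higher were the annexins anxa1b and anxa1c, the claudin gene cldne and agr1, the last pair named only to complete the count. anxa1c lost its call in 9 of 27 alternatives (adjusted p 0.0506 to 0.0769). anxa1b was called at 1.49 ± 0.38 SE, adjusted p 0.0253, and not without WT replicate 4, crkeap1a/b replicate 4, Bach1 DKO replicate 1 or 2, or Bach1 DKO crkeap1a/b replicate 2 (adjusted p 0.0504 to 0.0773). The summed level of the 33 matched genes was 6277 to 8771 CPM in WT, 3557 to 4320.2 CPM in crkeap1a/b, 6064 to 8119 CPM in Bach1 DKO and 2294 to 3019.8 CPM in Bach1 DKO crkeap1a/b pools, and tgm1l3 and tgm1l6 were at 0 in the last group.

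The digestive organs showed fewer calls. All 15 tested exocrine pancreas markers were negative with a median of -0.92, but 1 was called lower; 14 fell on editing in Bach1 DKO larvae and 1 in WT larvae, and in the fit of the 4 groups alone 10 were called lower for the interaction; without Bach1 DKO crkeap1a/b replicate 3, 2 were. Their summed level was 17899.9 to 25883 CPM in WT, 15465 to 21743 CPM in crkeap1a/b, 21733 to 22694 CPM in Bach1 DKO and 8712 to 11579.8 CPM in Bach1 DKO crkeap1a/b pools. The called gene was amy2al2, an amylase with close copies: amy2al2 was at 30.9, 38.3, 11.9 and 35.1 CPM in the 4 WT pools and 89, 31.4, 90.2 and 128 CPM in the crkeap1a/b pools. With Bach1 mutated, amy2al2 was at 51.8, 55.4, 69.3 and 117 CPM in the Bach1 DKO and 20.5, 15.1, 24.4 and 13.6 CPM in the Bach1 DKO crkeap1a/b pools. It was one of 4 genes in which editing had called effects of opposite sign, higher in WT (1.51 ± 0.34 SE, adjusted p 0.00345) and lower in Bach1 DKO larvae (-1.94 ± 0.37 SE, adjusted p 0.000123), and the interaction was -3.45 ± 0.50 SE, adjusted p 4.72e-05. Of 27 enterocyte markers 1 was called, lrp2b, a gene of the megalin family of endocytic receptors (-1.79 ± 0.40 SE, adjusted p 0.00955), and the median was -0.16.

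The remaining lists showed no call in either direction. These were DNA replication and mitosis (22 tested, median 0.10) and fatty acid oxidation (29 tested, median 0.09), beside the glutathione, quinone reductase, vacuolar ATPase, MiT/TFE and lens lists above. By limma-voom at an unadjusted p under 0.05, 1 higher and 1 lower passed in each of these lists. In the alternatives with all pools, edgeR and DESeq2 included, at most 0 higher and 1 lower were called in the replication list and 0 in the oxidation list.

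Among the called genes on no list, those with the largest interactions are described here. s100a1 was at 4.78, 4.3, 2.89 and 3.98 CPM in the 4 WT pools and 1.1, 4.48, 3.86 and 2.15 CPM in the crkeap1a/b pools. With Bach1 mutated, s100a1 was at 0.878, 2.01, 4.02 and 1.33 CPM in the Bach1 DKO and 36.8, 37.2, 30.6 and 50.8 CPM in the Bach1 DKO crkeap1a/b pools. s100a1 encodes a calcium-binding protein of the S100 family. Its edited Bach1 DKO pools were above all others, and the interaction was 4.83 ± 0.74 SE, adjusted p 0.000108. si:ch211-202h22.7, which the table gives no other name, was at 4.63 ± 3.62 CPM in WT, 10.9 ± 5.49 CPM in crkeap1a/b, 4.27 ± 1.88 CPM in Bach1 DKO and 176 ± 16.9 CPM in Bach1 DKO crkeap1a/b larvae (SD, n = 4) (interaction 3.99 ± 0.57 SE, adjusted p 3.89e-05), and rose on editing in both backgrounds. abracl, an actin-related gene, was at 27.5 ± 9.06 CPM in WT, 50.6 ± 9.48 CPM in crkeap1a/b, 14.7 ± 3.37 CPM in Bach1 DKO and 136 ± 14.4 CPM in Bach1 DKO crkeap1a/b larvae (SD, n = 4) (interaction 2.28 ± 0.34 SE, adjusted p 7.49e-05). fabp4a, a fatty acid binding protein, was at 53.1 ± 7.87 CPM in WT, 57.6 ± 9.09 CPM in crkeap1a/b, 39.4 ± 1.79 CPM in Bach1 DKO and 124 ± 11.3 CPM in Bach1 DKO crkeap1a/b larvae (SD, n = 4) (interaction 1.53 ± 0.23 SE, adjusted p 9.59e-05). cmklr1, a chemokine-like receptor, had 2.76 ± 0.61 SE, adjusted p 0.00893. cfhl2, named for complement factor H, had 3.40 ± 0.86 SE, adjusted p 0.0232 and lost its call in 4 of 27 alternatives (adjusted p 0.0526 to 0.0735). cxcl19, a chemokine, had 2.79 ± 0.76 SE, adjusted p 0.0372 and lost its call in 8 of 27 (adjusted p 0.0567 to 0.0936). The other higher ones were zgc:193801 (2.78 ± 0.56 SE, adjusted p 0.00372), si:ch211-153b23.4 (2.86 ± 0.59 SE, adjusted p 0.00468), si:ch211-153b23.3 (5.08 ± 1.25 SE, adjusted p 0.0187, lost in 2 of 27) and LOC110440141, which had 0 counts in the Bach1 DKO pools and therefore has no fold. Both si:ch211-153b23.3 and cxcl19 were lower in Bach1 DKO than in WT larvae without editing and passed no test between the edited groups. For neither gene did all edited Bach1 DKO pools lie above the pools of the other groups.

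In the lower direction si:dkey-183i3.5 fell on editing in both backgrounds, being at 232 ± 77.5 CPM in WT, 75.9 ± 38 CPM in crkeap1a/b, 295 ± 87 CPM in Bach1 DKO and 17.7 ± 10.1 CPM in Bach1 DKO crkeap1a/b larvae (SD, n = 4), with an interaction of -2.47 ± 0.53 SE, adjusted p 0.00718. wu:fa03e10 was at 232 ± 69 CPM in WT, 304 ± 50.7 CPM in crkeap1a/b, 187 ± 27.6 CPM in Bach1 DKO and 65.6 ± 10.7 CPM in Bach1 DKO crkeap1a/b larvae (SD, n = 4) (interaction -1.93 ± 0.34 SE, adjusted p 0.000933). cacna1sb, a calcium channel subunit of skeletal muscle, had -1.28 ± 0.22 SE, adjusted p 0.000756. synpo2b, a synaptopodin family gene, had -3.14 ± 0.73 SE, adjusted p 0.012. ntn5, a netrin, rose on editing in WT (2.45 ± 0.59 SE, adjusted p 0.00778) and was at 4 counts over the WT pools (interaction -2.90 ± 0.66 SE, adjusted p 0.0113). LOC100148752 had -3.83 ± 0.83 SE, adjusted p 0.00799 and si:ch211-217a12.1 -2.39 ± 0.41 SE, adjusted p 0.000756. The calls of col25a1, a collagen (-4.07 ± 1.00 SE, adjusted p 0.0187), and cnga3a, a cone channel subunit (-1.52 ± 0.38 SE, adjusted p 0.0212), were lost in 4 of 25 and 6 of 27 alternatives. Of these genes, cnga3a is on the phototransduction list and was counted there. ompa, olfactory marker protein, had -2.58 ± 0.69 SE, adjusted p 0.0342 and brsk1a, a kinase, -2.53 ± 0.71 SE, adjusted p 0.0406, with calls lost in 10 of 25 and 12 of 25. The calls of cdk14 and LOC108191751 were lost in 15 of 25 and 13 of 27. 

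The same editing was also profiled in the Nrf2 KO line, which carries an Nrf2a knockout, in 4 pools without and 4 with keap1a/b editing. There editing raised 101 genes (0.716%), among them 23 of the 208 genes with a higher and 1 of the 178 with a lower Bach1 interaction. The median editing effect in that line was 0.41 over the 208 genes and -0.11 over the 178. The editing effect there was, for hmox1a, -0.52 ± 0.26 SE, adjusted p 0.385, for fthl28 1.91 ± 0.31 SE, adjusted p 0.000291 and for fuca1.1 1.38 ± 0.18 SE, adjusted p 3.97e-06. The difference between the Nrf2 KO and Bach1 DKO responses was not tested.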

How the data were processed

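Whole larvae were profiled by 3′ messenger RNA sequencing, with 4 pools of 10 larvae in each of 8 groups. The authors deposited raw counts per gene for the 32 libraries, made per the labels with FastQC 0.72, cutadapt 1.16, STAR 2.7.5b and featureCounts 1.6.3 on danRer11, and analysed them with limma 3.40.6. Of 16825 rows, 786 name no gene; they held 36.6% to 44.8% of the counts of the 16 compared libraries and were left out. Symbols were matched for 15617 of 16039 IDs through a RefSeq table (names only).

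The fit used R 4.3.3 with limma-voom (limma 3.58.1, edgeR 4.0.16): filterByExpr with a minimum count of 10, TMM factors, 8 group means over all 32 libraries, no covariate, empirical Bayes moderation, two-sided tests and Benjamini-Hochberg adjustment over all rows tested, called at an adjusted p under 0.05. The interaction was (Bach1 DKO crkeap1a/b minus Bach1 DKO) minus (crkeap1a/b minus WT). CPM values are counts scaled to a common library size with TMM factors. The script was tested on simulated counts. A group with 3 or fewer counts gives no fold. Floors and counting limits cover counting error only.

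The members and lists were chosen with earlier results of these data known. Genes were named by rule: keap1a, keap1b, bach1a, bach1b and nfe2l2a; in each direction the 15 largest interactions and the 10 smallest p-values among called genes with a symbol and at least 5 CPM in a group; up to 5 called members of each list; canonical Nrf2 targets; and the 5 largest shared editing effects that were not called. Other genes are list members given as values. The labels do not say that pools came from separate clutches, so p-values measure the spread between pools, which may be technical. Alternatives were the fit of the 4 groups alone, edgeR's quasi-likelihood test, DESeq2 1.42.0, limma-trend, sample weights, a replicate block, other filters and scalings, leaving out each pool, and, chosen after seeing the data, keeping the rows without an ID. A promoter motif search was not run.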

Additional observations from a re-analysis of the deposited data

Results flagged for a closer look

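The editing effect differed between Bach1 DKO and WT larvae in 208 genes in the higher and 178 genes in the lower direction by the test of the difference itself (limma-voom, adjusted p under 0.05). In 4 of these genes editing had called effects of opposite sign. The interaction was 0.91 for hif1al (-0.49 ± 0.13 SE in WT and 0.42 ± 0.13 SE in Bach1 DKO larvae) (a fold is not given for hamp, whose Bach1 DKO pools held 1 count and whose interaction had an adjusted p of 0.0108). It was -3.45 for amy2al2 and -1.96 for timp4.3 (1.21 ± 0.35 SE in WT and -0.75 ± 0.26 SE in Bach1 DKO larvae).

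In 26 of 429 groups of 4 pools, over the named genes, a single pool lay far from the others by Dixon's criterion, where chance gives about 21. Of these, 10 were in WT, 3 in crkeap1a/b, 6 in Bach1 DKO and 7 in Bach1 DKO crkeap1a/b. In WT replicate 2 nfe2l2a stood at 512 CPM and sqstm1 at 327 CPM, above the other WT pools, and pde6c at 38.3 CPM and cnga3a at 15.2 CPM, below them. The pool WT replicate 3 stood apart at 689 CPM for hbae3, 93.8 CPM for psma6b and 70.4 CPM for plg, and WT replicate 4 at 6.52 CPM for galca, 37.6 CPM for tpp1 and 10.5 CPM for hmgcs1. In crkeap1a/b the values were 2.94 CPM for mfap4.1 in replicate 1, 39.2 CPM for fthl29 in replicate 2 and 665 CPM for myhz1.3 in replicate 3. Among Bach1 DKO pools they were 1.76 CPM for hmox1a in replicate 1, 8.43 CPM for bach1a and 37.7 CPM for gclc in replicate 2, 42.0 CPM for fabp4a in replicate 3, and 54.2 CPM for psma3 and 229 CPM for wu:fa03e10 in replicate 4. In Bach1 DKO crkeap1a/b they were 2751 CPM for fthl28 in replicate 1, and 20.5 CPM for cfhl2 and 229 CPM for gclc in replicate 2. Replicate 3 of that group held 137 CPM of keap1a, 30.2 CPM of grna, 12.4 CPM of cyba and 4.37 CPM of ncf1.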

How the results depend on the processing

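Of 95 called genes among 109 named, 51 passed the threshold under all 27 alternatives, 5 passed under each of the fewer that tested them, and 39 lost the call in at least 1. Of the named genes not called, 2 were called in the fit of the 4 groups alone and 2 with sample quality weights. With the 4 compared groups fitted alone, 506 genes were called higher and 505 lower, and with sample quality weights 436 and 429; both kept all 208 higher calls, and kept 175 and 178 of the 178 lower calls. The cause was not tested. Counts were within 1.5 times under the other 9 settings. Leaving out 1 pool gave 112 to 261 higher and 88 to 197 lower calls. The higher count moved by over 1.5 times without WT replicate 2 (125), crkeap1a/b replicate 4 (112), or Bach1 DKO replicate 1 (136) or 3 (135). The lower count did so without WT replicate 1 (116) or 2 (88), crkeap1a/b replicate 4 (98), Bach1 DKO replicate 3 (112) or 4 (103), or Bach1 DKO crkeap1a/b replicate 1 (115), 3 (110) or 4 (102). With a replicate block 201 genes were called higher and 165 lower. The block gave each replicate number 1 effect shared by all 8 groups, so pairing within the Bach1 line alone was not fitted. Replicate numbers correlated at 0.146, 0.156, 0.137 and 0.0752 between Bach1 DKO and Bach1 DKO crkeap1a/b, 1 of them under 0.1. The mean was 0.128 for the same and -0.0428 for other numbers. Between WT and crkeap1a/b the values were 0.00755, -0.056, 0.0141 and 0.124, with means of 0.0223 and -0.0075. Not every value was over 0.1 in either line, so the numbers were not taken as pairs. Of the named calls, plg did not pass with the block (adjusted p 0.0584). The uncalled gstp1.1 interaction turned positive by edgeR (0.18), DESeq2 (0.19), limma-trend (0.11) and the replicate block (0.00485), and was -0.36 to 0.45 when a pool was left out. Depth limits genes near 3 counts (0.962 to 1.34 CPM).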

Other observations

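Further groups of genes were noticed among the calls and their lists were written after the values were seen, so their counts are descriptions only. Of 33 tested genes of the ESCRT complexes, which sort membrane proteins into vesicles bound for the lysosome, 6 were called higher and 0 lower, with a median interaction of 0.52, where 1.47% of all rows were called higher. The count was 11 in the fit of the 4 groups alone, 3 without WT replicate 2 or Bach1 DKO replicate 3, and 2 without crkeap1a/b replicate 4. tsg101b went from 28.4 ± 5.87 to 31.3 ± 3.80 CPM on editing in WT and from 20.5 ± 5.17 to 55.4 ± 8.93 CPM in Bach1 DKO larvae (SD, n = 4), and ist1 had an interaction of 0.85 ± 0.21 SE. Of 12 subunits of the Arp2/3 complex, which branches actin filaments, 3 were called higher and 0 lower, with a median of 0.54. The 4-group fit called 5, and 1 was called without WT replicate 1 or 2, crkeap1a/b replicate 4, Bach1 DKO replicate 2, 3 or 4, or Bach1 DKO crkeap1a/b replicate 2, 3 or 4.

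Among 31 synaptic vesicle and axon growth genes 8 were called lower and 0 higher, with a median of -0.50, where 1.26% of all rows were called lower. The 4-group fit called 16 and edgeR's quasi-likelihood test 4. Leaving out 1 pool gave 1 to 8 calls, with 1 call without WT replicate 2, and moved the count by over 1.5 times for each pool but WT replicate 3 or 4 and crkeap1a/b replicate 3. gap43, an axon growth protein, was at 51.1 ± 7.43 CPM in WT, 47.1 ± 6.11 CPM in crkeap1a/b, 49.3 ± 6.35 CPM in Bach1 DKO and 24.6 ± 1.36 CPM in Bach1 DKO crkeap1a/b larvae (SD, n = 4). Of 21 cartilage and tendon matrix genes 8 were called lower and 0 higher, with a median of -0.89. Without editing, their median log2 difference between Bach1 DKO and WT larvae was 0.90. Their median editing effect was -0.10 in WT and -1.05 in Bach1 DKO larvae. The 4-group fit called 13. Leaving out 1 pool gave 2 to 8 calls, 2 without Bach1 DKO replicate 4, and moved the count by over 1.5 times for each pool but WT replicate 1, crkeap1a/b replicate 4, Bach1 DKO replicate 1 and Bach1 DKO crkeap1a/b replicate 2. epyc, which encodes a cartilage proteoglycan, was at 89.5 ± 8.18, 76.9 ± 10.9, 203 ± 47.8 and 68.8 ± 11.7 CPM in these groups in the same order, so that its level was highest in unedited Bach1 DKO larvae.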
